A study of Mus musculus with 12 samples.

Results

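The genes described here take glucose into the cell and carry it to pyruvate and lactate. They are the transporters Slc2a1 and Slc2a3, the hexokinases Hk1 and Hk2, the phosphofructokinases Pfkl and Pfkp, the aldolase Aldoc, the phosphoglycerate kinase Pgk1, the lactate dehydrogenase Ldha and the pyruvate dehydrogenase kinase Pdk1. These 10 genes were chosen by name, and their loci were found among the 40039 loci of the deposited transcript models through the exons (mm9). A locus of their own was found for 9 of the 10. RNA came from mouse embryonic stem (ES) cells of strain C57BL/6J in 4 groups of 3 libraries: Notch1-/- at day 6, WT at day 6, Notch1-/- at day 0 and WT at day 0. At day 0 the cells were undifferentiated, grown with LIF at 1000 U/ml on feeder fibroblasts or gelatin, and the labels do not say which library had which. For day 6 they were aggregated in hanging drops of 1000 cells, which form embryoid bodies, to start cardiac differentiation. How the Notch1 allele was made and whether a group comes from 1 clone is not stated. The design text calls the replicates biological but names no separate cultures, so p-values measure the spread between these libraries, which may be technical.

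Poly(A) RNA was sequenced, and each library held 100637179 to 134662426 counts. Levels are given as CPM, which is counts relative to the scaled library size. Notch1, the targeted receptor, had 6.8, 4.9 and 4.95 CPM in Notch1-/- day 6 libraries and 38, 30.8 and 31.1 CPM in WT day 6 libraries. Undifferentiated, it had 3.8, 3.87 and 4.59 CPM in Notch1-/- libraries and 61.6, 24.7 and 34 CPM in WT libraries, so every library went with its label. Embryoid bodies are mixtures, and in bulk RNA fewer cells of a type and less RNA per cell cannot be told apart.

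Glucose enters cells through facilitative transporters and is trapped by hexokinase as glucose 6-phosphate. Phosphofructokinase makes the committed step, aldolase splits the sugar, phosphoglycerate kinase makes ATP, and lactate dehydrogenase turns pyruvate into lactate while restoring NAD+. Pdk1 phosphorylates pyruvate dehydrogenase and so slows the use of pyruvate in the mitochondria. Most of these genes are known targets of the hypoxia-inducible factors in some cells, which bind the letters ACGTG or GCGTG. Pluripotent cells are known for a high rate of glycolysis, and cardiac differentiation for a later move to oxidative metabolism.

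Promoter windows of 250 bases before to 50 after a gene's start were given by RefSeq (GRCm38.p6) for 9 of the 10 genes, all but Slc2a3, in 13 windows. Either strand of ACGTG or GCGTG was found in 11 of these 13 windows and in at least 1 window of each of the 9 genes. In all 32851 mouse windows of the same length the share was 43.8%. Shown here are windows of the 1 gene called higher in both comparisons of Notch1-/- day 6 libraries and of the pair of genes called lower at day 6 in both genotypes. Ldha and Pdk1 have 2 windows each, of which the more upstream is shown. The sequences run 5′ to 3′ on the gene's strand, and capitals mark these letters, read on either strand.
Ldha, chr7:46845554-46845853 (+): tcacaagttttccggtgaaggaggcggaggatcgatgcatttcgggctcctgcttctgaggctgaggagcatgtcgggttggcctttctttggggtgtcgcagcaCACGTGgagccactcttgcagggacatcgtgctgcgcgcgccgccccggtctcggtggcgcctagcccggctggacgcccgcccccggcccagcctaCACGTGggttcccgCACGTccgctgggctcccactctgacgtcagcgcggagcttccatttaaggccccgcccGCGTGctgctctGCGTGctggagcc
Hk2, chr6:82774405-82774704 (-): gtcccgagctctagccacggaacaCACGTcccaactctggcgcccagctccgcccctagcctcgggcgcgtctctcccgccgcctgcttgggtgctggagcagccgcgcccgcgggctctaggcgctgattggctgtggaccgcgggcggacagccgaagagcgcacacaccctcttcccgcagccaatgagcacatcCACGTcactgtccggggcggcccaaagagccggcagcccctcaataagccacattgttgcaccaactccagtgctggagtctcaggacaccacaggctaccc
Pdk1, chr2:71872974-71873273 (+): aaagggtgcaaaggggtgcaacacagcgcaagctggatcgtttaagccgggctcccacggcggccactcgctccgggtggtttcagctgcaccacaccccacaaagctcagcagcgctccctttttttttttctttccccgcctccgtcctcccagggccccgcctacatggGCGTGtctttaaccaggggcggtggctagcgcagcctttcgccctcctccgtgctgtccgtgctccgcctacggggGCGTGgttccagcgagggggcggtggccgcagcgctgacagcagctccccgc
The Ldha window shown held 7 matches, the Hk2 window 2 and the Pdk1 window shown 2. The second window of Ldha held 2 and that of Pdk1 held 0. The upstream Ldha window was also the only one of the 13 with CACGTG, a palindrome that counts as 2 overlapping matches and that stood there at 2 places. CACGTG occurred in 7.15% of all windows. Of all windows, 20.6% held 2 or more matches of ACGTG or GCGTG, with a single CACGTG counted as 2. The match is one of letters, and binding was not measured.

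Ldha was higher in Notch1-/- than in WT embryoid bodies, and it was the only gene of the 9 measured that was called there. Hk1, Hk2, Pfkp and Pdk1 were lower at day 6 than at day 0 in Notch1-/- cells, while Ldha was higher. Hk2 and Pdk1 were lower at day 6 in WT cells. A gene is called when its Benjamini-Hochberg adjusted p over all loci is under 0.05, from edgeR's quasi-likelihood test on counts for 6 genes and from limma on log2(FPKM + 1) for the 3 genes whose exons mostly overlap another locus (Slc2a3, Pfkp and Pgk1). FPKM is the authors' value per length and depth.

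Between genotypes at day 6, 1 of the 9 genes was called, against 28.1% of all loci by edgeR and 32.1% by limma. In 6 of the 9 genes (Slc2a3, Hk1, Hk2, Pfkp, Ldha and Pdk1) the 3 Notch1-/- values did not overlap the 3 WT values at day 6. The share of all loci without overlap was not counted, so the 6 are given as a description only. Fitted on the 6 day 6 libraries alone, 5 of the 9 were called, Slc2a3, Hk1 and Pfkp lower and Hk2 and Ldha higher, where edgeR called 52.8% of all loci. At day 0 edgeR and limma called 0 of the 9 between genotypes, against 9.56% and 6.2% of all loci. None had an unadjusted p under 0.05, DESeq2 on the counts called 0 of the genes too, and the groups overlapped for all 9 genes. Between days, 5 of the 9 were called in Notch1-/- cells, against 35.9% of all loci by edgeR and 35.1% by limma. In WT cells 2 of the 9 were called, against 43.1% and 44.4%. The difference between genotypes in the change from day 0 to day 6 was called for 0 of the 9 by edgeR and limma, against 11.3% and 13.9% of all loci, with 0 at an unadjusted p under 0.05 and 0 by DESeq2. The median log2 difference of the 9 genes between genotypes at day 6 was -0.26, beside 0.01 over all loci tested on counts. Between days it was -0.59 in Notch1-/- cells and -0.25 in WT cells, beside -0.02 and -0.12 over all such loci.

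**Figure D1:**
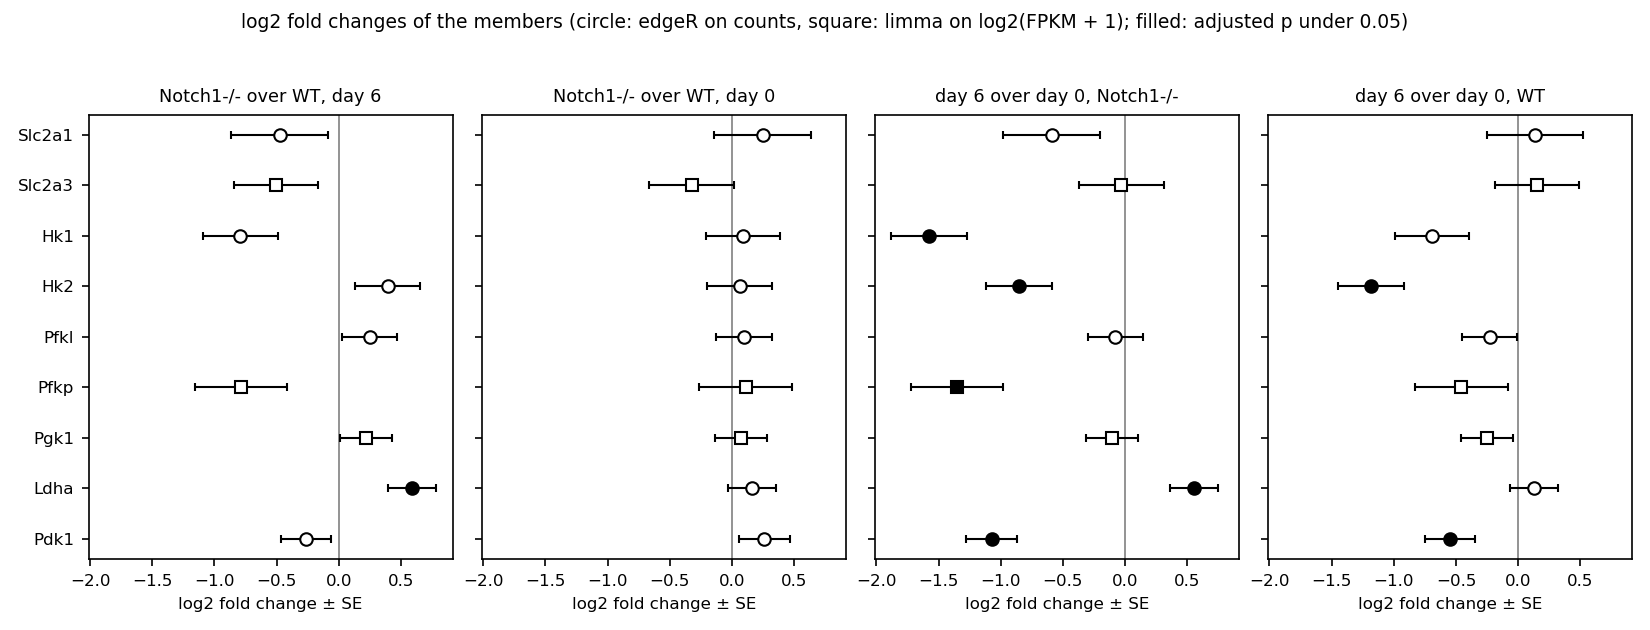
log2 fold changes with standard errors of the 9 measured genes, Notch1-/- over WT at each day and day 6 over day 0 in each genotype; circles come from counts and squares from FPKM, and filled symbols passed the threshold. Ldha (0.59) is the only filled symbol between genotypes at day 6, no symbol is filled at day 0, and Hk2 and Pdk1 are filled to the left of 0 in both panels of day 6 over day 0.

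Slc2a1 encodes the widely expressed glucose transporter GLUT1. It lies at chr4:118777675-118815627 (mm9, + strand), and no other locus shares its exons. It had 1120, 610 and 1290 CPM in Notch1-/- day 6 libraries and 1580, 1380 and 1240 CPM in WT day 6 libraries. Its day 0 levels were 1960, 1480 and 1100 CPM in Notch1-/- libraries and 863, 2260 and 706 CPM in WT libraries. The groups overlap at both days, and WT day 0 replicate 2 stands above all other libraries. No comparison was called, with a log2 difference of -0.48 (SE 0.39) between genotypes at day 6. Without WT day 0 replicate 2, Slc2a1 was called higher in Notch1-/- than in WT cells at day 0 (log2 0.96, adjusted p = 0.0383), higher at day 6 than at day 0 in WT cells (log2 0.84, adjusted p = 0.0394), and its change over time was lower in Notch1-/- than in WT cells (log2 -1.44, edgeR, adjusted p = 0.0303). Without that library edgeR called 23.4%, 41.6% and 15.4% of all loci in these comparisons, against 9.56%, 43.1% and 11.3% with it. That library also had the highest summed CPM of 14 other hypoxia-inducible genes among WT day 0 libraries, 1760 against 1290 and 976, and the part of this in the result was not tested.

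Slc2a3 encodes GLUT3, a transporter with high affinity for glucose. Its locus at chr6:122677827-122692763 (mm9, - strand) shares 98.6% of its exon length with a model on the other strand, which left 8 to 33 counts per library, so FPKM is given. It had 432, 270 and 362 FPKM in Notch1-/- day 6 libraries and 496, 446 and 549 FPKM in WT day 6 libraries. The 3 Notch1-/- values lie below the 3 WT values. The log2(FPKM + 1) difference was -0.51 (SE 0.34, limma, adjusted p = 0.281). At day 0 the values overlap, at 435, 418 and 247 FPKM in Notch1-/- libraries and 662, 534 and 250 FPKM in WT libraries.

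**Figure D2:**
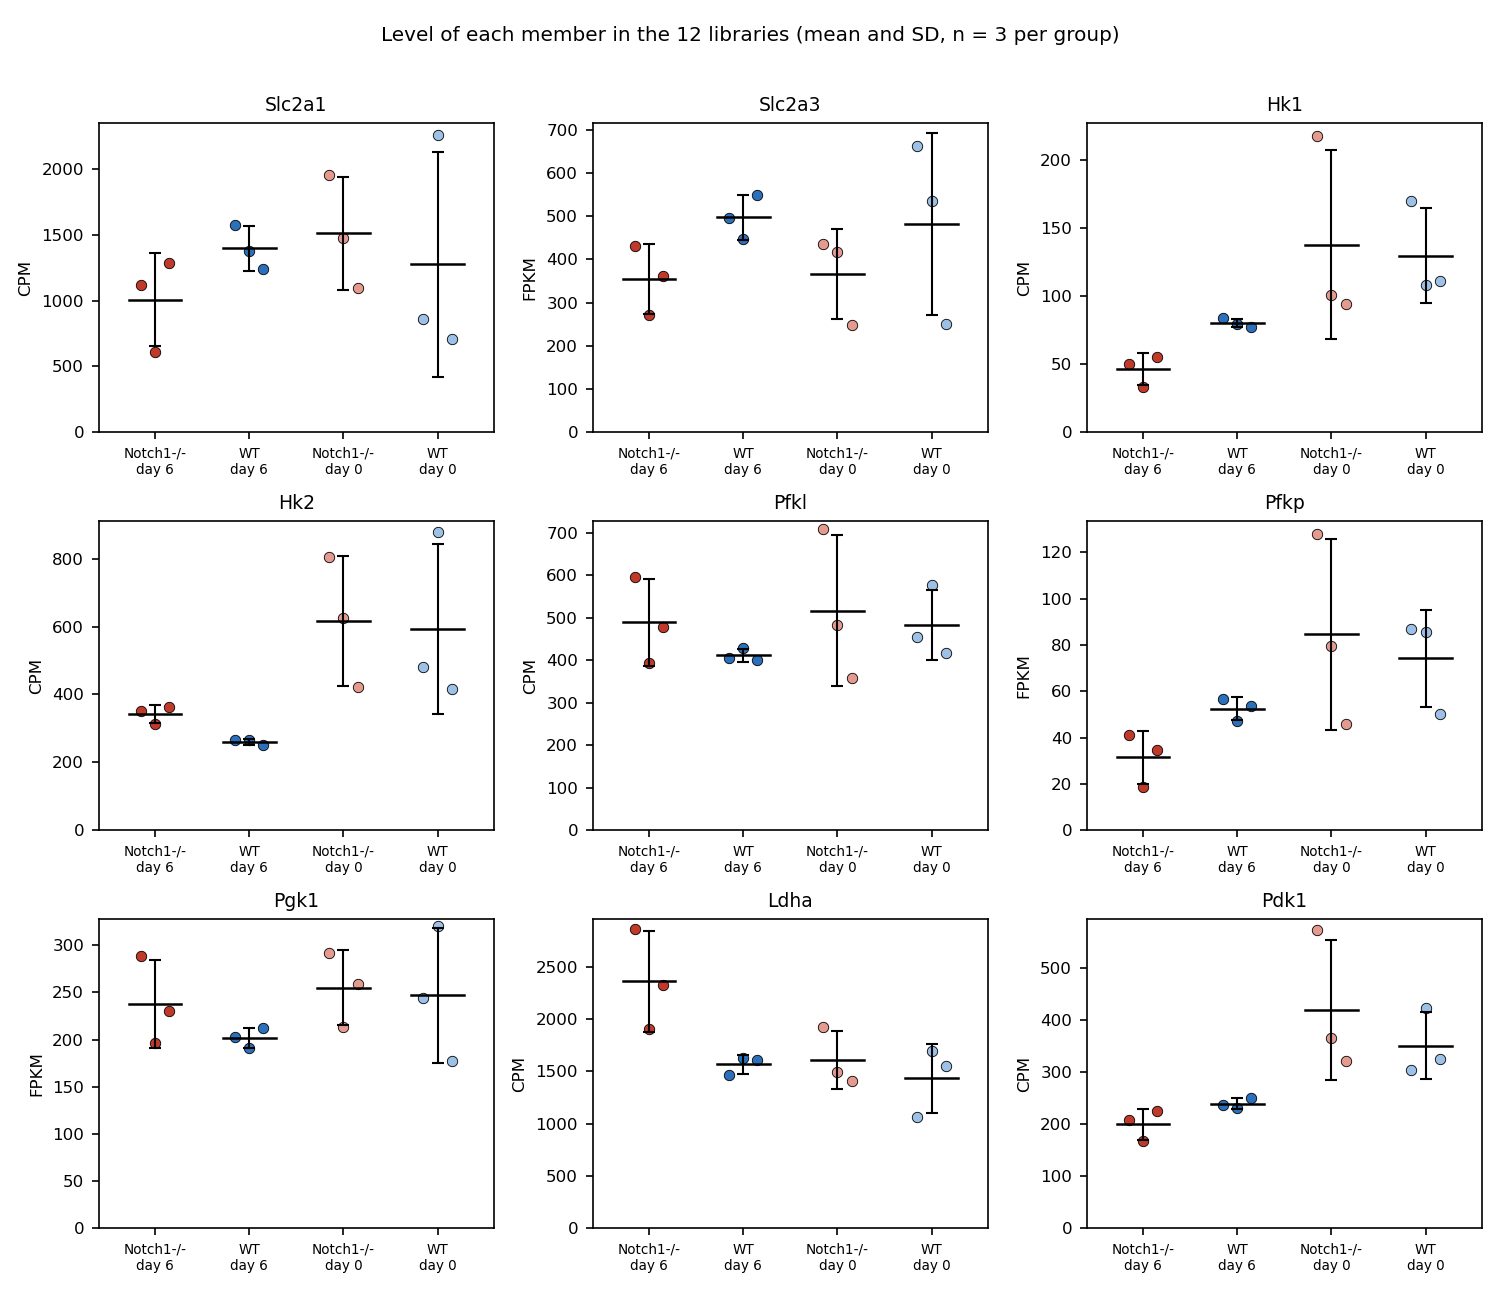
Level of each of the 9 measured genes in the 12 libraries, in CPM or, for Slc2a3, Pfkp and Pgk1, in FPKM; points are libraries, and bars are the mean and SD of 3. Day 0 groups spread more widely than WT day 6 groups, as for Hk1, with an SD of 69.6 CPM in Notch1-/- day 0 libraries and 3.27 CPM in WT day 6 libraries.

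Hk1 is the hexokinase of most tissues, found on the outer mitochondrial membrane. Its locus spans chr10:61731603-61842656 (mm9, - strand). It had 50.1, 33.5 and 55.5 CPM in Notch1-/- day 6 libraries and 83.8, 79.7 and 77.4 CPM in WT day 6 libraries. All 3 Notch1-/- embryoid body libraries lie below all 3 WT ones. The log2 difference of -0.79 (SE 0.30) was not called (edgeR, adjusted p = 0.0665). DESeq2 called it (log2 -0.84, adjusted p = 0.0366), as did edgeR with relative log expression scaling (log2 -0.84, adjusted p = 0.0481). The difference was also called by edgeR with the replicate number as a block (log2 -0.82, adjusted p = 0.0181), though the number is not taken as pairing at day 6. It was also called without Notch1-/- day 0 replicate 1 (adjusted p = 0.0112) or replicate 3 (adjusted p = 0.0497), which are in neither group and enter only the shared spread, and adjusted p ran from 0.0112 to 0.218 over the single libraries left out.

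At day 0 Hk1 had 218, 101 and 94.5 CPM in Notch1-/- libraries and 170, 108 and 111 CPM in WT libraries. Replicate 1 is the highest of both genotypes, and the groups overlap. In Notch1-/- cells Hk1 fell to 0.336 of its day 0 level by day 6 (log2 -1.57, SE 0.31, edgeR, adjusted p = 0.00184), and the call held without any single library. In WT cells the groups of the 2 days do not overlap either, but the log2 difference of -0.69 was not called (SE 0.30, adjusted p = 0.079). It was called without Notch1-/- day 0 replicate 1 (adjusted p = 0.0157), with upper quartile scaling (log2 -0.85, adjusted p = 0.0295) and in a fit of the 6 WT libraries alone (log2 -0.70, edgeR, adjusted p = 0.0194). A block for the replicate number also gave a call (log2 -0.65, edgeR, adjusted p = 0.0355). The 2 changes over time differed by -0.88 (SE 0.42), which was not called (adjusted p = 0.211).

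Hk2 is the hexokinase of muscle and of many growing cells. It lies at chr6:82670748-82725804 (mm9, - strand). It had 352, 314 and 362 CPM in Notch1-/- day 6 libraries and 265, 265 and 251 CPM in WT day 6 libraries. The Notch1-/- values all lie above the WT values, in the opposite direction to Hk1. The log2 difference of 0.39 (SE 0.26) was not called (edgeR, adjusted p = 0.284). At day 0 Hk2 had 805, 626 and 422 CPM in Notch1-/- libraries and 480, 879 and 417 CPM in WT libraries, with overlapping groups.

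Over time Hk2 fell by 0.85 in Notch1-/- cells (log2 -0.85, SE 0.26, adjusted p = 0.0231) and by 1.18 in WT cells (log2 -1.18, SE 0.26, edgeR, adjusted p = 0.00325). All day 6 values lie below all day 0 values of the same genotype. The call in WT cells held without any single library. That in Notch1-/- cells was lost without Notch1-/- day 0 replicate 1 (log2 -0.63, adjusted p = 0.0803) or 2 (-0.85, 0.0509), or without Notch1-/- day 6 replicate 1 (-0.86, 0.0625), 2 (-0.80, 0.0739) or 3 (-0.88, 0.0517).

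Pfkl, the liver-type phosphofructokinase, lies at chr10:77449694-77474615 (mm9, - strand). It had 596, 394 and 478 CPM in Notch1-/- day 6 libraries and 405, 430 and 402 CPM in WT day 6 libraries. Before differentiation, at day 0, it had 709, 483 and 359 CPM in Notch1-/- libraries and 455, 577 and 418 CPM in WT libraries. The groups overlap throughout, and no comparison was called. The differences were no larger than 0.25 on the log2 scale, with an SE of 0.22 at day 6.

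Pfkp is the platelet-type phosphofructokinase. Its locus at chr13:6579120-6658685 (mm9, - strand) shares 81.5% of its exon length with the locus of Pitrm1, so FPKM is given. It had 41.1, 18.8 and 34.5 FPKM in Notch1-/- day 6 libraries and 56.7, 47 and 53.6 FPKM in WT day 6 libraries. The groups do not overlap, but the log2(FPKM + 1) difference of -0.79 (SE 0.37) was not called (limma, adjusted p = 0.132). At day 0 it had 128, 79.8 and 46.1 FPKM in Notch1-/- libraries and 86.9, 85.8 and 50.2 FPKM in WT libraries, with replicate 3 the lowest of both genotypes. In Notch1-/- cells Pfkp fell by 1.35 from day 0 to day 6 (log2 -1.35, SE 0.37, limma, adjusted p = 0.0173), and no value of the 2 days overlaps. The call was lost without Notch1-/- day 6 replicate 2, its lowest library (log2 -1.03, adjusted p = 0.0666), and in a fit of the 6 Notch1-/- libraries alone (adjusted p = 0.0518). The counts of the unshared exons of Pfkp gave -1.52 (edgeR, adjusted p = 0.004), an alternative chosen after seeing the data.

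Aldoc encodes an aldolase known best from brain. Its exons were found only in a locus at chr11:78075256-78162662 (mm9) that the deposited models merge with those of 5 other genes (2610507B11Rik, BC030499, Pigs, Spag5 and Unc119), so no level can be given for Aldoc alone. Pgk1, the phosphoglycerate kinase of most tissues, lies at chrX:103381908-103407084 (mm9, + strand) and shares 87.6% of its exon length with the locus of Taf9b. It had 288, 196 and 230 FPKM in Notch1-/- day 6 libraries and 203, 191 and 212 FPKM in WT day 6 libraries. Its day 0 levels were 292, 213 and 259 FPKM in Notch1-/- libraries and 244, 320 and 177 FPKM in WT libraries. The groups overlap in all comparisons and none was called.

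Ldha encodes the subunit of lactate dehydrogenase that favours the making of lactate. It lies at chr7:54096006-54112077 (mm9, + strand). It had 2860, 1900 and 2320 CPM in Notch1-/- day 6 libraries and 1460, 1630 and 1610 CPM in WT day 6 libraries. Each Notch1-/- library lies above each WT library. Ldha was 1.5-fold higher in Notch1-/- than in WT embryoid bodies (log2 0.59, SE 0.19, edgeR, adjusted p = 0.0370). The call was lost without WT day 6 replicate 1 (log2 0.54, adjusted p = 0.127), 2 (0.62, 0.0834) or 3 (0.61, 0.0821) and without Notch1-/- day 6 replicate 1 (0.44, 0.145) or 3 (0.61, 0.0786). It was also lost with relative log expression scaling (log2 0.54, edgeR, adjusted p = 0.0509) and on log2(FPKM + 1) (0.47, limma, adjusted p = 0.0596).

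At day 0 Ldha had 1920, 1490 and 1410 CPM in Notch1-/- libraries and 1060, 1690 and 1550 CPM in WT libraries, with overlapping groups. In Notch1-/- cells it was 1.47-fold higher at day 6 than at day 0 (log2 0.56, SE 0.19, edgeR, adjusted p = 0.0385), although the lowest day 6 library lies just below the highest day 0 library. In WT cells the difference was 0.13 (SE 0.19, adjusted p = 0.616). The 2 changes differed by 0.43 (SE 0.27), which was not called (adjusted p = 0.350). The call in Notch1-/- cells was lost without Notch1-/- day 0 replicate 2 (adjusted p = 0.116) or 3 (0.143) or Notch1-/- day 6 replicate 1 (0.162) or 3 (0.0704), with upper quartile scaling (log2 0.40, adjusted p = 0.129) or relative log expression scaling (0.51, 0.0529), by DESeq2 (0.51, 0.0541) and in a fit of the 6 Notch1-/- libraries alone (0.53, 0.0547).

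Pdk1 lies at chr2:71711329-71741915 (mm9, + strand). It had 207, 167 and 224 CPM in Notch1-/- day 6 libraries and 237, 230 and 250 CPM in WT day 6 libraries. The groups do not overlap, by a narrow margin, and the log2 difference of -0.26 (SE 0.20) was not called (edgeR, adjusted p = 0.363). At day 0 it had 572, 365 and 321 CPM in Notch1-/- libraries and 303, 423 and 324 CPM in WT libraries. Pdk1 fell to 0.475 of its day 0 level in Notch1-/- cells by day 6 (log2 -1.07, SE 0.21, edgeR, adjusted p = 0.00168), a call that held without any single library. It fell to 0.683 of its day 0 level in WT cells (log2 -0.55, SE 0.20, adjusted p = 0.0442). That call was lost without any of 8 single libraries, namely WT day 0 replicates 2 (log2 -0.38, adjusted p = 0.161) and 3 (-0.61, 0.0616), WT day 6 replicates 1 (-0.53, 0.116), 2 (-0.51, 0.129) and 3 (-0.57, 0.0865), and Notch1-/- day 6 replicates 1 (-0.54, 0.0612), 2 (-0.54, 0.0507) and 3 (-0.54, 0.0547). DESeq2 did not call it either (log2 -0.50, adjusted p = 0.0701).

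Levels of different genes can be compared on the FPKM scale, which is per length. In Notch1-/- day 6 libraries Ldha was the most abundant at 761 ± 149 FPKM (SD, n = 3), followed by Slc2a3 at 355 ± 81.1, Slc2a1 at 244 ± 86.6 and Pgk1 at 238 ± 46.6 FPKM. In WT day 6 libraries Ldha had 543 ± 30.8 FPKM, Slc2a3 497 ± 51.8, Slc2a1 354 ± 39.1 and Pgk1 202 ± 10.4 FPKM. The ranges of 1 SD around neighbouring means overlapped for Slc2a3 and Slc2a1 and for Slc2a1 and Pgk1 in Notch1-/- libraries, and for Ldha and Slc2a3 in WT libraries. Pfkl followed at 88.9 ± 18.5 FPKM in Notch1-/- and 79 ± 1.36 FPKM in WT day 6 libraries. The order below it differed: Hk2 (37.4 ± 3.08), Pfkp (31.4 ± 11.5), Pdk1 (25.8 ± 4.19) and Hk1 (6.71 ± 1.70 FPKM) in Notch1-/- day 6 libraries, and Pfkp (52.4 ± 4.94), Pdk1 (32.2 ± 2.1), Hk2 (29.6 ± 0.479) and Hk1 (12.1 ± 0.396 FPKM) in WT day 6 libraries. The SD range of Pfkp overlaps those of Hk2 and Pdk1 in Notch1-/- day 6 libraries and lies above both in WT day 6 libraries.

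Some related enzymes that do the same step stood in different proportions in the embryoid bodies of the 2 genotypes, and the transporters did not separate. The Slc2a3 to Slc2a1 ratio of FPKM values was 1.59, 1.84 and 1.16 in Notch1-/- day 6 libraries and 1.25, 1.31 and 1.7 in WT day 6 libraries, with overlapping groups. The Hk1 to Hk2 ratio of FPKM values was 0.189, 0.142 and 0.203 in Notch1-/- day 6 libraries and 0.417, 0.403 and 0.408 in WT day 6 libraries. The Pfkp to Pfkl ratio was 0.379, 0.262 and 0.397 in Notch1-/- day 6 libraries and 0.73, 0.585 and 0.677 in WT day 6 libraries. Pdk3 is another kinase of pyruvate dehydrogenase, and the Pdk1 to Pdk3 ratio was 1.45, 1.3 and 1.43 in Notch1-/- day 6 libraries and 2.09, 1.97 and 2.33 in WT day 6 libraries. In these 3 enzyme ratios the Notch1-/- values lie below the WT values without overlap. At day 0 the ranges overlap: the Hk1 to Hk2 ratio was 0.216 to 0.363 in Notch1-/- and 0.164 to 0.474 in WT libraries, and the Pfkp to Pfkl ratio 0.727 to 1.00 in Notch1-/- and 0.620 to 0.902 in WT libraries. The ratios were chosen with the levels known and were not tested. The share of all gene pairs without overlap was not counted, so they are given as a description only. A further ratio, Pkm to Ldha, overlapped, at 1.08 to 1.33 in Notch1-/- and 1.18 to 1.31 in WT day 6 libraries. A ratio within a library does not depend on its scaling, but it shows unequal change only, not which gene moved. The Ldha to Ldhb ratio, where Ldhb is the subunit that favours pyruvate, was 10.2, 10.3 and 7 in Notch1-/- day 6 libraries and 10.7, 12.5 and 10.4 in WT day 6 libraries. Its Notch1-/- values also lie below its WT values, by a narrow margin. In all day 0 libraries but WT replicate 3 the Ldha to Ldhb ratio was lower than in any day 6 library. It was 4.15 to 6.21 in Notch1-/- and 3.57 to 8.29 in WT day 0 libraries.

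**Figure D3:**
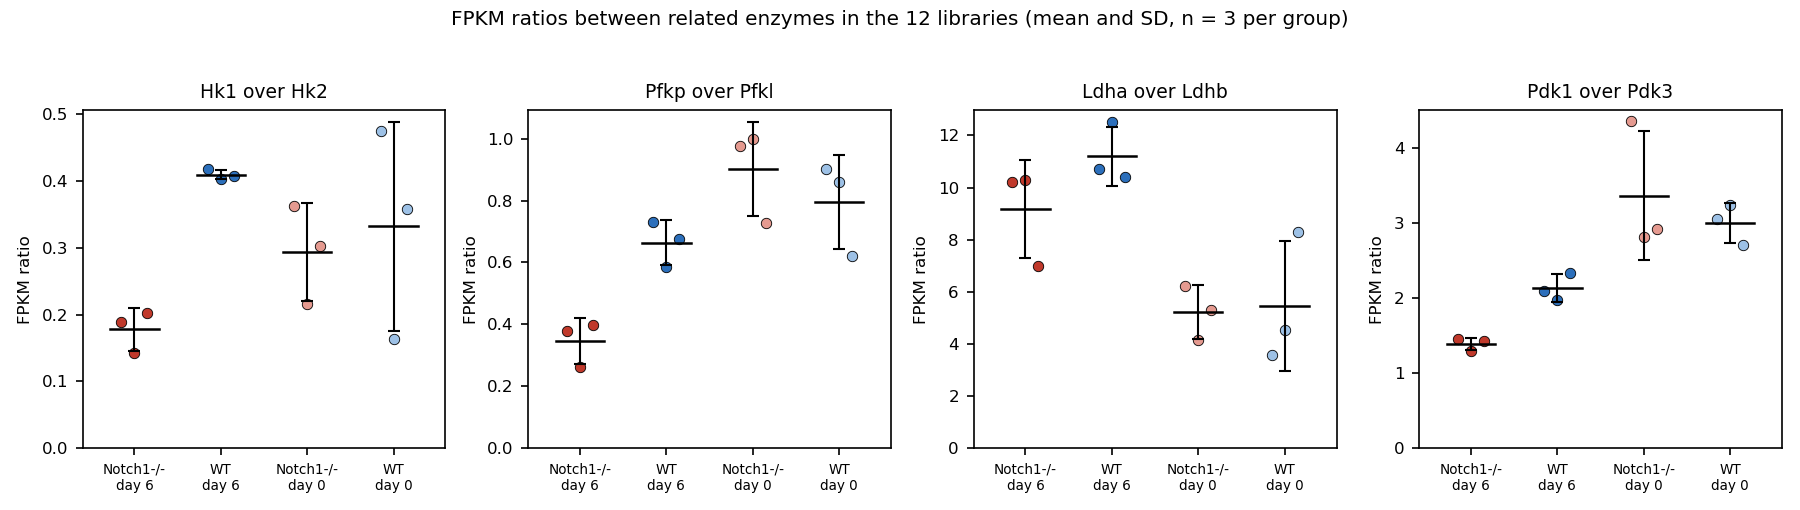
FPKM ratios between enzymes of the same step in the 12 libraries; points are libraries, and bars are the mean and SD of 3. The Hk1 to Hk2 ratio is at most 0.203 in Notch1-/- day 6 libraries and at least 0.403 in WT day 6 libraries, while the day 0 groups overlap in each panel.

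Of 29 other genes of glucose transport and glycolysis, 23 had a locus of their own, though Gapdh and Slc16a3 had few counts for their FPKM. Slc2a4, Slc2a8, Pgam1 and Eno1 share 76.1%, 99.1%, 100% and 68.3% of exon length with other loci. They were read from FPKM, which may include the overlapping gene. Between genotypes at day 6, 7 of the 23 were higher and 4 lower in Notch1-/- libraries, with a median log2 difference of -0.04. By edgeR 28.1% of all loci were called in either direction, and by limma 32.1%. Higher were the late enzymes Pgam1, Eno1 and Pkm, the lactate dehydrogenase subunit Ldhb, Tigar, which lowers fructose 2,6-bisphosphate, and the scarcely expressed Hk3 and Pklr. Lower were the transporters Slc2a2 and Slc2a12, the regulator Pfkfb1 and the testis form Ldhc. Eno1, an enolase, had 302, 262 and 266 FPKM in Notch1-/- day 6 libraries and 202, 200 and 188 FPKM in WT day 6 libraries (log2 0.49, SE 0.13, limma, adjusted p = 0.0139). Ldhb had 185, 126 and 219 CPM in Notch1-/- day 6 libraries and 94.1, 87.2 and 106 CPM in WT day 6 libraries (log2 0.88, SE 0.22, edgeR, adjusted p = 0.00944). Neither gene's groups overlap, and with Ldha 2 subunits of lactate dehydrogenase were thus higher.

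Pkm, the pyruvate kinase of most cells, was picked out after its values were seen: it had 3050, 2600 and 2780 CPM in Notch1-/- day 6 libraries and 2000, 2060 and 1980 CPM in WT day 6 libraries (log2 0.48, SE 0.14, adjusted p = 0.0222). Slc2a12 had 16.6, 17.8 and 16 CPM in Notch1-/- day 6 libraries and 31.1, 30 and 27.5 CPM in WT day 6 libraries (log2 -0.81, SE 0.20, edgeR, adjusted p = 0.00982). Slc2a2, the liver transporter, was near the limit of detection at 0.018 to 0.0312 CPM in Notch1-/- and 0.12 to 0.257 CPM in WT day 6 libraries. Hk3 had 0.406 to 1.07 CPM in Notch1-/- and 0.0911 to 0.222 CPM in WT day 6 libraries. The count of 11 called genes was 6 without WT day 6 replicate 1 or 2, 7 without WT day 6 replicate 3 or Notch1-/- day 6 replicate 1 or 2, and 18 in a fit of the day 6 libraries alone. Over all loci edgeR called 16.7% to 21% in these fits without 1 library, and 52.8% in the fit of the day 6 libraries alone.

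**Figure D4:**
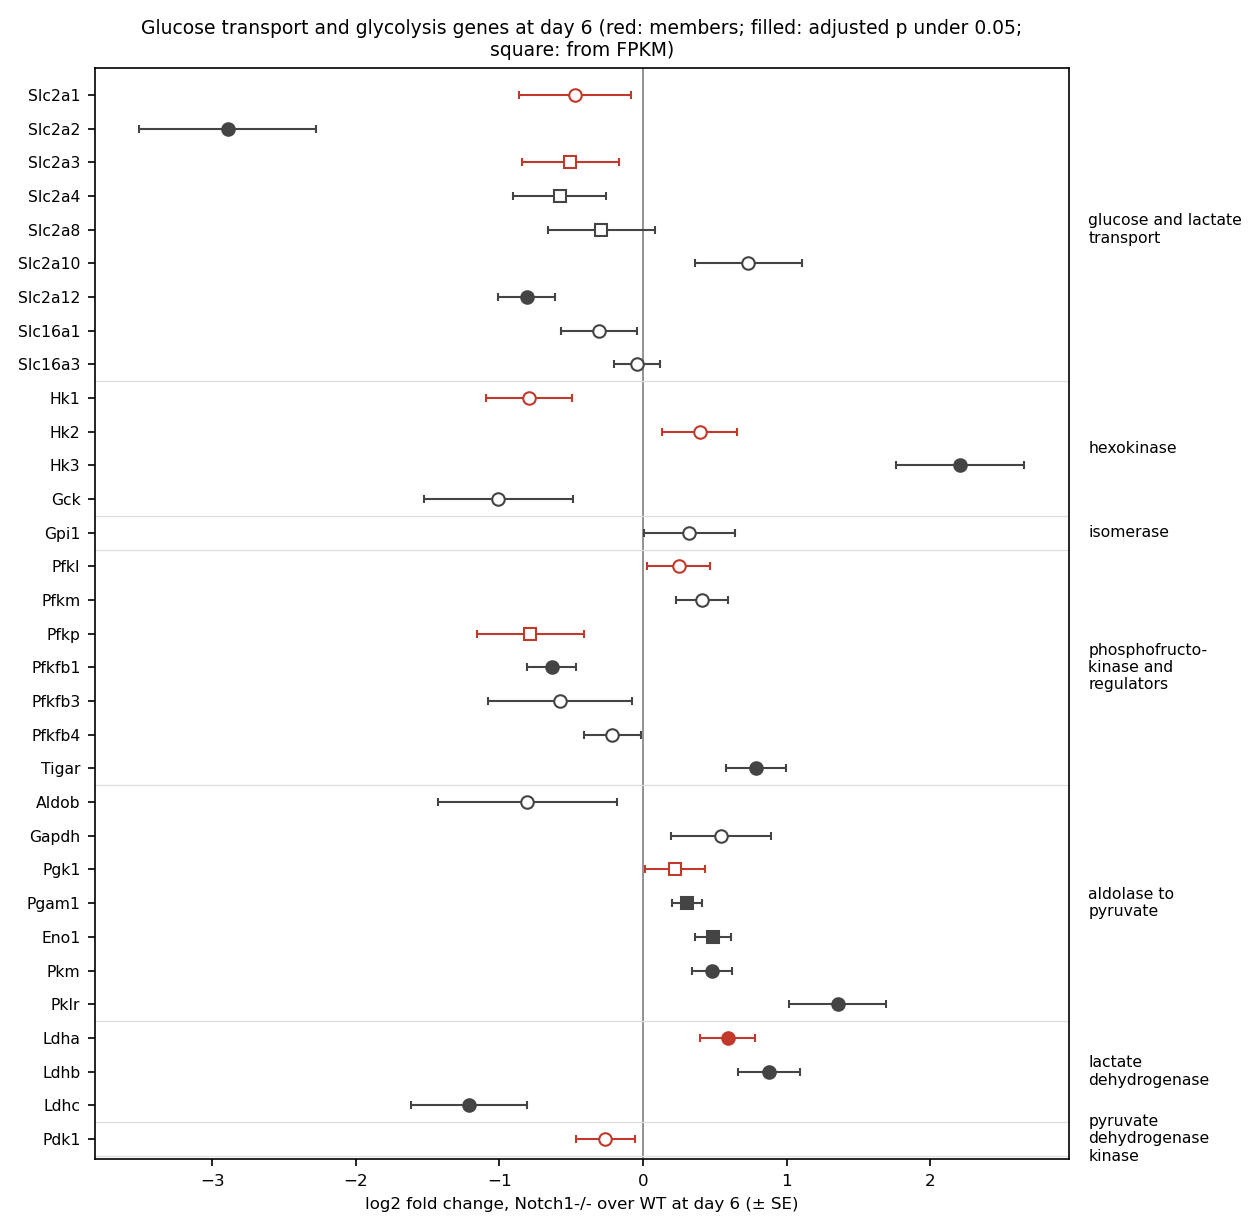
log2 fold change with standard error, Notch1-/- over WT at day 6, of the 9 measured members (red) and of 23 other genes of glucose transport and glycolysis, ordered along the pathway; filled symbols passed the threshold and squares come from FPKM. From Pgam1 to Ldhb the filled symbols lie to the right of 0, as do those of Hk3 and Tigar, while Slc2a2, Slc2a12, Ldhc and Pfkfb1 are filled to the left.

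At day 0 edgeR and limma called 0 of these 23 genes between genotypes, with 2 at an unadjusted p under 0.05. Without WT day 0 replicate 2 the count was 5, and without Notch1-/- day 0 replicate 1 it was 1. EdgeR called 23.4% and 16.2% of all loci in these fits, against 9.56% with all 12 libraries. Between days 3 of the 23 genes were higher and 2 lower at day 6 in Notch1-/- cells, and 5 were higher and 8 lower at day 6 in WT cells. Over all loci, 35.9% by edgeR and 35.1% by limma were called between days in Notch1-/- cells, more than the 5 of 23, and 43.1% and 44.4% in WT cells. Pkm and Ldhb were among those that fell in WT cells, with log2 changes of -0.45 (adjusted p = 0.0207) and -1.03 (adjusted p = 0.00228). In Notch1-/- cells their changes of 0.04 and -0.21 were not called, and the difference between the genotypes' changes was not called for either gene (adjusted p = 0.136 for Pkm and 0.105 for Ldhb). The count in WT cells was 8 without WT day 6 replicate 1 or 2, where edgeR called 31.5% and 30.8% of all loci. The count in Notch1-/- cells was 2 without Notch1-/- day 0 replicate 2 or Notch1-/- day 6 replicate 1, and 3 without Notch1-/- day 0 replicate 3 or Notch1-/- day 6 replicate 3. In those fits edgeR called 24.7% to 28.1% of all loci.

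The pentose phosphate pathway branches from glucose 6-phosphate and makes NADPH and ribose. At day 6, 3 of its 5 measured genes were higher in Notch1-/- libraries and 0 lower. The background for this and the other lists at day 6 is again 28.1% of all loci called by edgeR and 32.1% by limma. G6pdx, the entry enzyme, had 121, 124 and 124 CPM in Notch1-/- day 6 libraries and 61.8, 72.6 and 66.9 CPM in WT day 6 libraries (log2 0.87, SE 0.18, edgeR, adjusted p = 0.00316). Taldo1, a transaldolase, had 219, 211 and 223 CPM in Notch1-/- and 119, 139 and 136 CPM in WT day 6 libraries (log2 0.73, adjusted p = 0.000406). Pgd, the dehydrogenase after G6pdx, had a log2 difference of 0.65 (adjusted p = 0.0279). Of 14 measured genes of the citric acid cycle, 3 were higher (Idh3a 0.74, Ogdh 0.49 and Mdh2 0.46 on the log2 scale) and 0 lower, a share below that background. Of 10 measured genes for the entry of pyruvate into mitochondria and its use there, only Pdha1 was called, at 444, 448 and 375 FPKM in Notch1-/- and 76.1, 76 and 72.4 FPKM in WT day 6 libraries. Pdha1 had 98.9, 432 and 91 FPKM in Notch1-/- day 0 libraries, so 1 day 0 library also stands at the higher level.

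Among 18 measured genes outside glycolysis that hypoxia-inducible factors are known to raise, 0 were higher and 5 lower in Notch1-/- embryoid bodies, with a median log2 difference of -0.61. The 5 are about the share called over all loci, 28.1% by edgeR and 32.1% by limma. Vegfa, a growth factor for vessels, had 97.2, 37 and 77.9 CPM in Notch1-/- day 6 libraries and 388, 347 and 366 CPM in WT day 6 libraries (log2 -2.38, SE 0.29, edgeR, adjusted p = 0.000112). P4ha2 and P4ha1, which hydroxylate collagen, were lower by log2 values of -1.69 and -1.23, and Mxi1, a Myc antagonist, by -0.75 (adjusted p = 0.000487, 0.00336 and 0.0184). The summed CPM of the 14 genes read from counts was 809 to 1210 in Notch1-/- day 6 libraries and 1680 to 1860 in WT day 6 libraries. The lowest sum, 809, was in Notch1-/- day 6 replicate 2, which was also the lowest of its group for each of the 9 measured members. Without that library, or without WT day 6 replicate 1 or 2, 3 of the 18 were lower instead of 5, and in a fit of the day 6 libraries alone 12 were. EdgeR called 16.7% to 18.6% of all loci in these fits without 1 library, and 52.8% in the fit of the day 6 libraries alone.

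Epas1, which encodes the factor HIF2 alpha, had 11.4, 12.9 and 22.2 CPM in Notch1-/- and 42.8, 43.1 and 44.3 CPM in WT day 6 libraries (log2 -1.49, SE 0.29, edgeR, adjusted p = 0.00267). At day 0 it was higher in Notch1-/- libraries, at 78.1, 61.1 and 60.1 CPM against 17.4, 31.3 and 39.8 CPM in WT libraries (log2 1.17, adjusted p = 0.0254). It was the only one called of 10 measured oxygen-sensing and glycolysis regulators at day 6, a share below the 28.1% of all loci called by edgeR.

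Markers of other cells differed between the same groups. Of 21 measured feeder fibroblast markers, 1 was higher and 12 lower in Notch1-/- than in WT embryoid bodies, and their summed CPM was 2390 to 4680 in Notch1-/- and 4910 to 6060 in WT day 6 libraries. The day 0 sums were 2730 to 4980 in Notch1-/- and 3860 to 7350 in WT libraries. Fn1 alone gave 3880, 4430 and 2150 CPM of the Notch1-/- day 6 sums and 3740, 3540 and 3080 CPM of the WT day 6 sums, and it was not called between genotypes at day 6 (log2 0.01). Between days in Notch1-/- cells 16 of the 21 markers were lower at day 6 and only Fn1 higher, with a median log2 change of -2.59, which the sums do not show. In WT cells 10 were lower and 3 higher, with a median of -0.72. The shares of all loci called between days were 35.9% by edgeR and 35.1% by limma in Notch1-/- cells, and 43.1% and 44.4% in WT cells. The markers did not move together in WT cells: Acta2 averaged 87 CPM at day 0 and 384 CPM at day 6, and Lox 217 and 1.32 CPM. Whether the day 6 values come from feeder cells was not tested. Of 11 measured heart and vessel progenitor genes, 0 were higher and 9 lower, with sums of 161 to 406 CPM in Notch1-/- and 691 to 1070 CPM in WT day 6 libraries. Of 12 measured naive pluripotency genes, 4 were higher and 1 lower, with sums of 783 to 1220 CPM in Notch1-/- and 513 to 696 CPM in WT day 6 libraries. Among the markers read from counts, Fap was the only gene at 0 in any library. The part of these cell types in the values of the glycolysis genes was not tested.

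**Figure D5:**
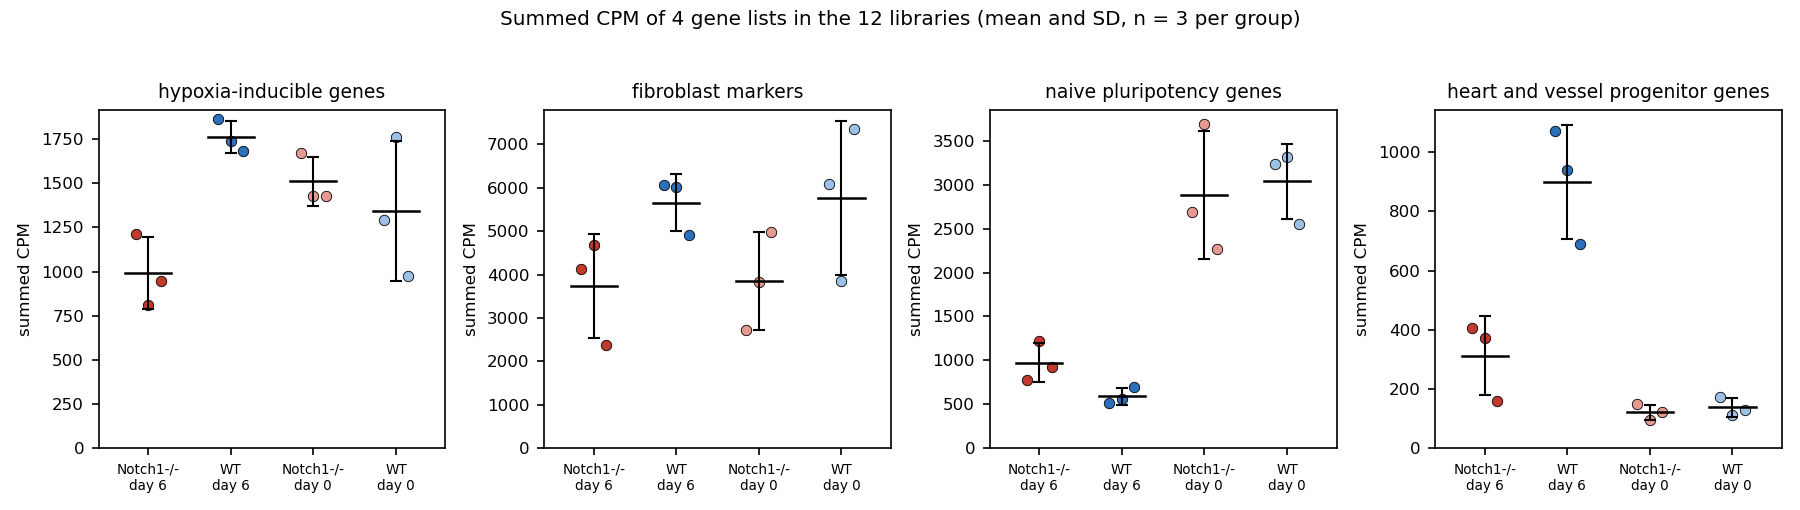
Summed CPM of 14 hypoxia-inducible genes, 20 fibroblast markers, 9 naive pluripotency genes and 11 heart and vessel progenitor genes in the 12 libraries; points are libraries, and bars are the mean and SD of 3. At day 6 each sum is apart between the genotypes, lower in Notch1-/- libraries for all but the pluripotency genes.

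A median profile was taken from the 6 members read from counts. Their median over the 12 libraries, on the log2 scale around each gene's own mean, was highest in Notch1-/- day 0 replicate 1 at 0.82 and lowest in Notch1-/- day 6 replicate 2 at -0.59. Pdk1 lay nearest to this profile, with a root mean square difference of 0.182 on the log2 scale, and Ldha farthest, with 0.507. Each member is part of this median and so lies nearer to it by construction. Over the 7015 genes compared the median difference was 0.517. Ldha and Hk1 (0.471) thus lay little nearer to the profile than a typical gene, so not all members share it. Among genes outside the list, Sgo2a (0.171), Rubcn (0.185), Pigb (0.188), Ucp2 (0.191) and Mtmr12 (0.193) were the nearest over the 12 libraries. They were picked as the smallest values of that large comparison. Ucp2, a mitochondrial carrier, had 114, 87.3 and 152 CPM in Notch1-/- day 6 libraries, 121, 126 and 133 CPM in WT day 6 libraries, 260, 190 and 120 CPM in Notch1-/- day 0 libraries and 163, 172 and 195 CPM in WT day 0 libraries. Profiles over these 12 libraries share depth and scaling, so the likeness is given as a description.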

How the data were processed

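Per the labels' protocols, poly(A) libraries from Trizol RNA were sequenced on a HiSeq2000 as paired reads of 100 bases. Build mm9 and the tools HTSeq 0.5.4p3, DESeq, TopHat2 2.0.8 and Cufflinks 2.1.1 come from the submitters' processing notes; what each did, and the strand setting, is not given in the sources used here. Deposited by the authors were raw counts and FPKM (per length and depth) for 40039 merged loci, and the transcript models. Without strand, overlapping genes cannot be told apart.

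Gene symbols were linked by matching the lengths of runs of an intron, an internal exon and an intron with GENCODE vM21 on the same chromosome and strand (at least 2 shared runs); no coordinates were converted. This linked 15629 loci, with 0 matches on a wrong chromosome as a check. Loci sharing at least 50% of exon length with another were read from FPKM, and loci holding several genes were not used. This rule may miss lost counts: Gapdh shares no exon length, yet had 17.1 to 57.5 CPM beside 268 to 417 FPKM over the 12 libraries. Other genes read from counts were low beside their FPKM too. These were Pdhb (1.88 to 7.05 CPM, 21 to 38.8 FPKM), Slc16a3 (22.1 to 40.7, 44.9 to 132), Idh2 (14.9 to 26.3, 32.8 to 87.1) and Bnip3 (19.4 to 40.7, 17.2 to 81.9). Their tests, and the hypoxia sum that holds Bnip3, carry this limit. Depth was 100637179 to 134662426 counts per library, and replicates differed by 41.33 to 403.8 chi-square per degree of freedom, so counting error is small.

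edgeR 4.0.16 (R 4.3.3; quasi-likelihood, TMM, filterByExpr, 23991 loci) was fitted to all 12 libraries with a mean per group, and limma 3.58.1 to log2(FPKM + 1) for 13371 loci with FPKM of at least 1 in at least 3 libraries. A fold change from FPKM is on that scale and understates the change of low genes. CPM uses TMM-scaled library sizes, whose factors ran from 0.9078 to 1.1422. SE is the log2 change over the root of F. The fits were tested on simulated data. DESeq2 1.42.0, other scalings, filters, sample sets and single libraries left out were alternatives. Genes named besides the members were the up to 4 of each list with the smallest p between genotypes at day 6 and in the difference of changes, and 5 by likeness. Pgam1, Pkm, Tigar, Pfkfb1, Ldhc, Gapdh, Slc2a4, Slc2a8, Slc16a3, Bnip3, Fn1, Fap and Lox were named after their values were seen. The members and lists were chosen with earlier results of these data known. Same-numbered libraries of the 2 genotypes deviated together at day 0 (correlations 0.154 to 0.391), which is taken as pairing there; a fit of day 0 libraries with the replicate block, added after this check, changed no member's call. In the other 3 pairs of groups compared, at least 1 same-numbered pair of libraries fell short of the 0.1 required, so the number is not taken as pairing there. That cut does not exclude pairing. Between WT day 0 and WT day 6 the same-numbered correlations were 0.049 to 0.12, and the others -0.099 to -0.017. WT day 0 and Notch1-/- day 6 libraries, which are not compared, had 0.122 to 0.217.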

Additional observations from a re-analysis of the deposited data

Results flagged for a closer look

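No member met a rule for a closer look. Among the other genes named, the change from day 0 to day 6 differed between genotypes by a test of the difference itself (Notch1-/- minus WT, log2, adjusted p under 0.05) for 23 genes. Part of the genes were named for a small p in this same test, so the count is not a share of the lists. That test called 11.3% of all loci by edgeR and 13.9% by limma. In glucose metabolism it was higher in Notch1-/- cells for Hk3 (2.28), Pklr (2.21), Mlxipl (3.13), Taldo1 (0.66) and Idh3a (0.75), and lower for Slc2a2 (-3.22) and Dld (-0.55). Of the hypoxia-related genes it was lower for Vegfa (-2.49), P4ha2 (-1.51), Mxi1 (-1.16) and Epas1 (-2.66). Of the heart and vessel genes it was lower for Cdh5 (-6.30), Tbx20 (-6.34), Fli1 (-6.03), Tal1 (-3.71) and Mef2c (-2.13). Of the fibroblast markers it was lower for Postn (-6.42), Prrx1 (-5.55), Acta2 (-5.33), Col3a1 (-4.64) and Col1a1 (-3.13). Of the pluripotency genes it was higher for Tdgf1 (2.82) and lower for Dppa3 (-1.54).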

How the results depend on the processing

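Calls among the 9 members depended on the setting where adjusted p lay near 0.05. Between genotypes at day 6, 1 member was called, against 2 with a replicate block or DESeq2, 0 on log2(FPKM + 1) or log2(FPKM + 0.1), 5 in the fit of that contrast's groups alone, and 0 to 2 without single libraries. Over all loci edgeR called 28.1% with all libraries, 32% with the block, 52.8% in those groups alone and 16.7% to 31.4% without single libraries. With relative log expression scaling the 1 called was Hk1 (adjusted p = 0.0481), not Ldha (0.0509). At day 0, 0 were called under all settings but 1 single library left out (0 to 1). Between days in Notch1-/- cells the 5 became 3 in the contrast's groups alone, 4 with upper quartile scaling, relative log expression scaling or DESeq2, each without Ldha, 4 with only loci with under 50% shared, where Pfkp is not tested, and 3 to 5 without single libraries. In WT cells the 2 became 3, with Hk1, under upper quartile scaling, the replicate block or the contrast's groups alone, 1 with relative log expression scaling, no filter, log2(FPKM + 1), log2(FPKM + 0.1), only loci with under 50% shared or DESeq2, and 1 to 3 without single libraries. The difference of changes gave 0 to 1 without single libraries. With a replicate block Hk1 was called between genotypes at day 6 (-0.82) and between days in WT cells (-0.65); it changed no other member's call, and 8 of 12 libraries correlated best with their own number in all 3 other groups.

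Signs turned only for differences not called. On log2(FPKM + 1) and log2(FPKM + 0.1) the day 0 genotype difference became -0.10 and -0.11 for Hk1, -0.04 and -0.04 for Hk2 and -0.07 and -0.08 for Pfkl, and the Pfkl change in Notch1-/- cells 0.01 and 0.01. With upper quartile scaling the WT change became -0.06 for Slc2a1 and -0.04 for Ldha. That scaling shifted the median of all loci between days to -0.18 in Notch1-/- and -0.29 in WT cells, against -0.02 and -0.12, and the share of calls that were higher to 37.1% and 33%, against 47.8% and 42.7%. Without single libraries the day 0 genotype differences ranged from -0.05 to 0.96 (Slc2a1), -0.4 to 0.33 (Hk1), -0.17 to 0.47 (Hk2), -0.19 to 0.31 (Pfkl), -0.24 to 0.48 (Pfkp), -0.14 to 0.28 (Pgk1), -0.02 to 0.3 (Ldha) and -0.02 to 0.43 (Pdk1). The changes in Notch1-/- cells ranged from -0.29 to 0.15 (Slc2a3), -0.3 to 0.21 (Pfkl) and -0.25 to 0.03 (Pgk1), those in WT cells from -0.16 to 0.84 (Slc2a1), -0.26 to 0.44 (Slc2a3) and -0.05 to 0.27 (Ldha), and the differences of changes from -0.47 to 0.23 (Slc2a3), -0.09 to 0.55 (Hk2), -0.08 to 0.43 (Pfkl) and -0.06 to 0.37 (Pgk1). The cause was not tested.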
